A study of Mus musculus with 8 samples.

Results

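Proteins of the BCL2 family set whether the outer mitochondrial membrane stays intact. In cells of a kidney epithelial line exposed to cisplatin, 10 genes of the family outside the usual list of p53 targets were followed. They were found by gene symbol, 1 row each, among 21879 genes of the deposited table, and all 10 passed the filter on low counts that left 11576 genes to be tested. By role they comprised 4 pro-survival genes (Bcl2, Bcl2l1, Bcl2l2 and Mcl1), 3 BH3-only genes (Bcl2l11, Bid and Bad), the pore-forming Bak1 and its relative Bok, and Bnip3. The cells were TCMK-1, an established line of mouse kidney epithelial cells. The knockdown group (4 libraries) came from cells with an shRNA against smgGDS, a chaperone and exchange factor of small GTPases, and the control group (4 libraries) from cells with a control shRNA. Cisplatin, which crosslinks DNA, was given to the cells of all 8 libraries at 20 µM, so the comparison is of the knockdown in treated cells and not of the drug. Cells given saline in place of cisplatin were not analysed here, and the sources used here give neither the shRNA sequence nor its promoter or the hours of treatment. The series' design text speaks of 1 knockdown cell line and does not say whether it is a clone.

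In the mitochondrial pathway of cell death, pro-survival proteins such as BCL-2, BCL-XL, BCL-W and MCL-1 hold the pore-forming proteins BAX and BAK in check. BH3-only proteins such as BIM, BID and BAD are induced or activated by stress and bind the pro-survival proteins, and some also activate BAX and BAK directly. Once BAX or BAK permeabilises the outer membrane, cytochrome c leaves the mitochondria and caspases are activated. Much of this control acts on protein, as in the phosphorylation of BAD, the cleavage of BID and the rapid degradation of MCL-1, which RNA levels do not measure.

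The knockdown was checked first. Rap1gds1, the gene of smgGDS, had 2.71, 2.36, 2.64 and 2.80 CPM in knockdown libraries, against 16.98, 15.6, 16.8 and 15.5 CPM in control libraries (CPM, read counts relative to library size, scaled with trimmed means), so each library matched its label. Total counts lay between 12746051 and 14280962 in the knockdown and between 11560977 and 16059158 in the control. Knockdown replicate 4 stood apart on the first principal component, at -20.9, against -9.58 to -8.86 in knockdown replicates 1 to 3. Of 11 tubule epithelial markers 6 were high enough to be tested, with Aqp1 at 127 ± 3.63 CPM in the knockdown and 155 ± 6.07 CPM in the control and Pax8 at 9.33 ± 1.19 CPM in the knockdown and 8.97 ± 0.412 CPM in the control (SD, n = 4 each), whereas Cdh1, Cdh16, Pax2, Slc34a1 and Hnf4a were not. The summed level of the epithelial list was 140.1 to 147 CPM in the knockdown and 164 to 179 CPM in the control. Most of it was Aqp1, which fell (-0.29, SE 0.04, edgeR adjusted p = 3.33e-07). Epcam, Krt8, Krt18 and Lrp2, also tested, shared the small rest of that sum with Pax8 and the untested markers, so most epithelial markers were low. The summed level of 8 leukocyte markers was 111 to 123 CPM in the knockdown and 129.6 to 139 CPM in the control. Nearly all of it was Cd14, which fell (-0.36, SE 0.06, edgeR adjusted p = 1.12e-05), and Cd68. The other 6 were too low to test, with Cd3e and Adgre1 at 0. Endothelial markers summed to 11.99 to 13.8 CPM in the knockdown and 7.54 to 9.84 CPM in the control, nearly all of it Flt1, the 1 of 6 that was tested, which rose (0.60, SE 0.11, edgeR adjusted p = 1.00e-04). Fibroblast and pericyte markers, of which 4 of 7 were tested and 3 rose, summed to 331 to 383 CPM in the knockdown and 282 to 307 CPM in the control, most of it Col1a1. The part of these marker differences in the results below was not tested. In bulk libraries of an established line, a changed share of cells with a marker and a changed amount of its RNA per cell cannot be told apart. Whether replicates were cultured separately is not in the labels, so p-values reflect spread among these samples that may be technical.

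Of the 10 genes, 1 rose in the knockdown and none fell. The gene that rose was Bcl2l2, which encodes the pro-survival protein BCL-W, by 15.4%. A gene was called when its adjusted p in edgeR's quasi-likelihood test, with Benjamini-Hochberg adjustment over all tested genes, was under 0.05, and by this rule 11.1% of all tested genes were higher and 9.15% were lower in the knockdown, 20.2% in all. With 1 rise and 0 falls in 10 genes, the share of rises was near that of the whole table and sets the 10 genes apart in no way. Fold changes are knockdown minus control on the log2 scale. Their median over the 10 genes was -0.07, against 0.00 over all tested genes, and 7 of the 10 estimates were below 0. Besides Bcl2l2, 1 gene (Bcl2l11) had an unadjusted p under 0.05. DESeq2 and limma voom, the latter with the same trimmed-mean scaling, also made 1 call of a rise and 0 of a fall among the 10. The call of Bcl2l2 was lost by library total, on FPKM, without knockdown replicate 3 or control replicate 3, and at a threshold of 0.01.

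**Figure D1:**
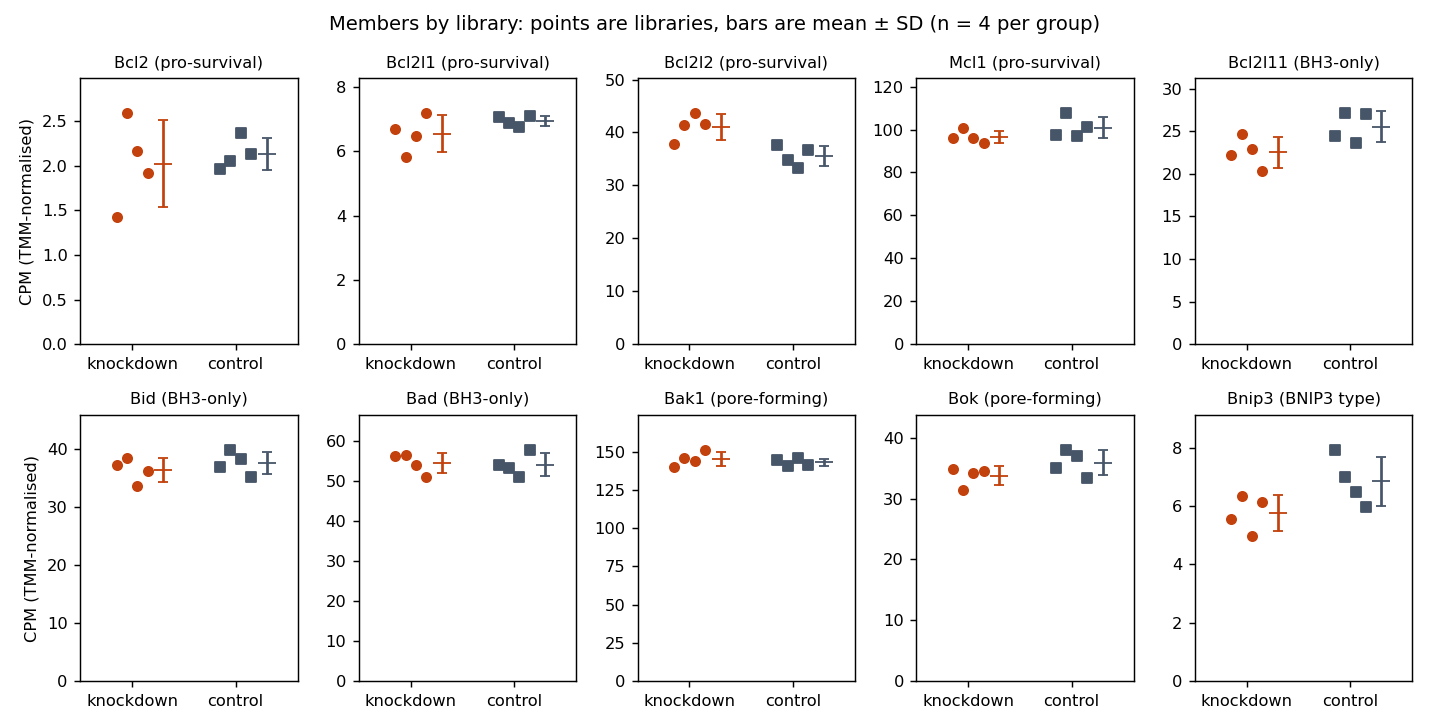
Normalised CPM (vertical axes from 0, scaled per gene) of the 10 genes in 4 knockdown libraries and 4 control libraries, with points for libraries and bars for the mean ± SD. In the Bcl2l2 panel the libraries lay between 37.8 and 43.7 CPM in the knockdown and between 33.3 and 37.6 CPM in the control, and in every other panel the groups overlapped.

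Levels per transcript length, given as the authors' FPKM (fragments relative to transcript length and library size), differed far more between the 10 genes than between the groups. The pore-forming effector Bak1 was highest, at 71.2 ± 2.05 FPKM in the knockdown and 72.8 ± 1.11 FPKM in the control (SD, n = 4 each). Bad followed at 44.7 ± 2.28 FPKM in the knockdown and 46.1 ± 1.69 FPKM in the control (SD, n = 4 each). Mcl1, the highest of the pro-survival genes, came next at 28.02 ± 0.719 FPKM in the knockdown and 30.04 ± 1.68 FPKM in the control (SD, n = 4 each). Bok, Bid, Bcl2l2, Bcl2l11 and Bnip3 followed in this order, with means of 3.22 to 21.3 FPKM in the knockdown and 3.98 to 23.5 FPKM in the control. Bcl2l1, which encodes BCL-XL, was at 1.81 ± 0.283 FPKM in the knockdown and 2.08 ± 0.137 FPKM in the control (SD, n = 4 each), and Bcl2 itself was lowest at 0.723 ± 0.132 FPKM in the knockdown and 0.780 ± 0.0804 FPKM in the control (SD, n = 4 each). The order of the 10 means was the same in both groups. Over all 8 libraries, the ranges of neighbours in this order overlapped for Bok with Bid and for Bcl2l11 with Bnip3, and for no other pair.

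**Figure D2:**
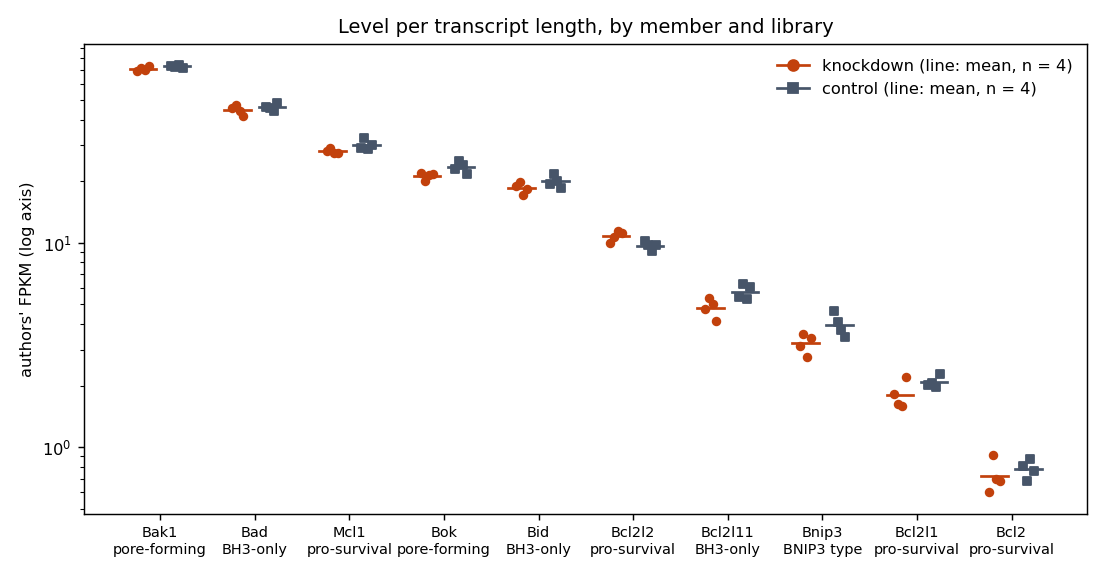
The authors' FPKM of each gene on a logarithmic axis, with knockdown libraries left of control libraries, points for libraries and lines for the group means (n = 4 each). The genes run from Bak1 at the left, with means of 71.2 FPKM in the knockdown and 72.8 FPKM in the control, down to Bcl2 at the right, and the groups lie close together beside that span.

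The 4 pro-survival genes did not share a direction, with 1 estimate above 0 and 3 below. Bcl2l2 (chromosome 14, 54883366 to 54890858, plus strand, GRCm38.p6) had 37.8, 41.3, 43.7 and 41.5 CPM in knockdown libraries, against 37.6, 34.7, 33.3 and 36.6 CPM in control libraries. With trimmed-mean scaling all knockdown libraries lay above all control libraries, though the lowest of the knockdown and the highest of the control were close, and 21.1% of all tested genes had groups that did not overlap. BCL-W is a pro-survival protein, as BCL-2 is. The log2 fold change of Bcl2l2 was 0.21 (SE 0.06, 95% interval 0.08 to 0.33, edgeR adjusted p = 0.0149), a rise with a 95% interval of 5.72% to 26.04%. Among all called genes, 61.2% changed by at least as much in either direction. Without knockdown replicate 4 the call was kept (0.20, edgeR adjusted p = 0.0307). It was lost without knockdown replicate 3 (0.18, edgeR adjusted p = 0.0635) and without control replicate 3 (0.18, edgeR adjusted p = 0.0631). It was also lost under scaling by library total alone (0.15, edgeR adjusted p = 0.0806) and on FPKM (0.15, limma adjusted p = 0.107). The groups overlapped on both of these scales, with knockdown replicate 1 at 37.1 CPM by library total and 10.02 FPKM, against 38.3 CPM and 10.2 FPKM in control replicate 1.

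The annotation around Bcl2l2 limits its value. GENCODE M21 lists a readthrough gene, Gm20521 (chromosome 14, 54883441 to 54898137, plus strand), which joins Bcl2l2 to its neighbour Pabpn1, a nuclear poly(A)-binding protein gene. The table has no row for the readthrough gene, and the sources used here do not say how its reads were assigned. Pabpn1 had 74.1, 75.96, 73.8 and 80.1 CPM in knockdown libraries, against 72.1, 75.8, 70.4 and 68.4 CPM in control libraries. Its groups overlapped and it was not called (0.08, SE 0.05, edgeR adjusted p = 0.248).

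Mcl1 encodes a short-lived pro-survival protein that binds BAK and BIM. It had 95.96, 101, 96.05 and 93.6 CPM in knockdown libraries, against 97.4, 108, 97.03 and 101 CPM in control libraries. The groups overlapped, and the highest value was in control replicate 2. Its log2 fold change was -0.06 (SE 0.04, edgeR adjusted p = 0.337), and the 95% interval of the change ran from -10.02% to 1.76%. Bcl2l1 had 6.71, 5.81, 6.49 and 7.19 CPM in knockdown libraries, against 7.08, 6.88, 6.77 and 7.10 CPM in control libraries. In Bcl2l1, 3 knockdown libraries were below every control library and replicate 4 was above them, and Bcl2l1 was not called (-0.09, SE 0.13, edgeR adjusted p = 0.705). Bcl2 rested on few reads, with 20, 33, 27 and 24 counts in knockdown libraries and 32, 34, 34 and 25 counts in control libraries. In CPM the control libraries all lay within the span of the knockdown libraries. Its 95% interval was the widest of the 10, from -32.6% to 33.2% around a log2 fold change of -0.08 (edgeR adjusted p = 0.869). A fall or a rise within that interval therefore remains possible, and the interval is not a limit of detection.

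None of the 3 BH3-only genes was called. Bcl2l11 (chromosome 2, 128126038 to 128162547, plus strand) encodes BIM, which binds all the main pro-survival proteins and can activate BAX and BAK. It had 22.2, 24.7, 22.9 and 20.3 CPM in knockdown libraries, against 24.4, 27.1, 23.6 and 27.03 CPM in control libraries. The groups overlapped through knockdown replicate 2, and the other knockdown libraries were below every control library. Its log2 fold change was -0.18 (SE 0.08, 95% interval -0.34 to -0.02, edgeR adjusted p = 0.1002). Among the alternatives run, scaling by library total alone was the 1 that called it lower (-0.24, edgeR adjusted p = 0.0260). Without knockdown replicate 4, the lowest library, it was -0.13 (edgeR adjusted p = 0.294). Some of its counts are not whole numbers, as happens when reads fit several features. Acoxl, which overlaps it on the same strand, also has counts that are not whole. Acoxl had between 1 and 7.05 counts per library, beside 253.86 to 450 counts of Bcl2l11, so its value is less certain on that small scale.

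Bid encodes a protein that links death receptors to mitochondria once caspase 8 has cleaved it. Its level lay between 33.6 and 38.5 CPM in the knockdown and between 35.2 and 39.9 CPM in the control, with overlap of the groups. It was not called (-0.05, SE 0.06, edgeR adjusted p = 0.653), and its 95% interval ran from -11.5% to 5.64%. Bad encodes a sensitiser that 14-3-3 proteins sequester when survival kinases phosphorylate it. Its level lay between 50.97 and 56.6 CPM in the knockdown and between 50.9 and 57.7 CPM in the control, again with overlap. It was not called (0.01, SE 0.05, edgeR adjusted p = 0.899), its 95% interval ran from -6.42% to 8.93%, and its estimate was -0.04 under scaling by library total and on FPKM. Bad too has counts that are not whole, and Gpr137 overlaps it on the other strand, at 31.7 CPM in the knockdown and 34.9 CPM in the control, so reads in the shared stretch could belong to either gene.

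Bak1, the effector that forms pores beside BAX, had the smallest standard error of the 10. It had 140.4, 146, 144 and 151 CPM in knockdown libraries, against 144, 141, 146 and 141 CPM in control libraries. The control libraries all lay within the span of the knockdown libraries. Its log2 fold change was 0.02 (SE 0.04, edgeR adjusted p = 0.739) with a 95% interval of -3.62% to 6.97%, and the estimate was -0.03 under scaling by library total and on FPKM. Bok, a relative of BAX and BAK found largely on the endoplasmic reticulum, lay between 31.5 and 34.96 CPM in the knockdown and between 33.5 and 38.1 CPM in the control. Its groups overlapped and it was not called (-0.09, SE 0.06, edgeR adjusted p = 0.361).

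Bnip3 (chromosome 7, 138890836 to 138909506, minus strand) encodes an atypical BH3 protein of the outer mitochondrial membrane that hypoxia induces and that acts as a receptor for mitophagy, the removal of mitochondria by autophagy. It had 5.57, 6.36, 4.97 and 6.15 CPM in knockdown libraries, against 7.94, 6.997, 6.49 and 5.99 CPM in control libraries. The groups overlapped through control replicate 4, and the other control libraries were above every knockdown library. Its log2 fold change was the lowest of the 10, at -0.26, and was not called (SE 0.14, 95% interval -0.54 to 0.02, edgeR adjusted p = 0.196).

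**Figure D3:**
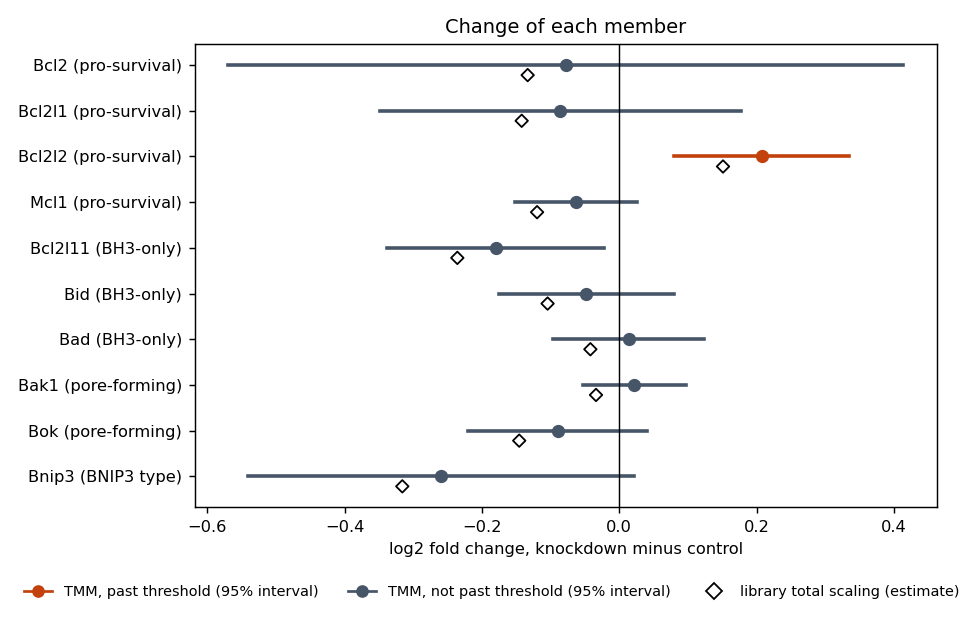
Log2 fold change, knockdown minus control, of each gene with its 95% interval from edgeR with trimmed-mean scaling (circles and lines) and the estimate with scaling by library total alone (open diamonds). Bcl2l2 at 0.21 is past the threshold with trimmed-mean scaling. The diamonds lie left of the circles for all 10 genes, and 9 of the 10 are below 0. The median of all tested genes also moved left, from -0.003 with trimmed-mean scaling to -0.06 with library totals.

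The promoters of Bcl2l2, Bcl2l11 and Bnip3 are printed because the first gene passed the test and the other two had the lowest estimates. The sequences are RefSeq's, from GRCm38.p6, read 5′ to 3′ on the gene's strand. They lie at chr14:54883175-54883365 (plus strand), chr2:128125788-128126037 (plus strand) and chr7:138909520-138909756 (minus strand). Each was cut at the first annotated exon to begin inside it, so an exon that began before it would remain. The Bcl2l11 stretch lies within the annotated span of Acoxl (chromosome 2, 127838797 to 128126252, plus strand). Capitals mark matches on either strand to the hypoxia response element cores ACGTG and GCGTG, to the E-box CACGTG, which contains ACGTG on both strands, and to the FOXO site GTAAACA, whose match in Bcl2l11 overlaps a GCGTG match.
Bcl2l2: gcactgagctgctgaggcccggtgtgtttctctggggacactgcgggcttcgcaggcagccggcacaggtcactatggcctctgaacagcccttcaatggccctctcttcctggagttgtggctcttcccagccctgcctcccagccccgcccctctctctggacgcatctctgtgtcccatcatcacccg
Bcl2l11: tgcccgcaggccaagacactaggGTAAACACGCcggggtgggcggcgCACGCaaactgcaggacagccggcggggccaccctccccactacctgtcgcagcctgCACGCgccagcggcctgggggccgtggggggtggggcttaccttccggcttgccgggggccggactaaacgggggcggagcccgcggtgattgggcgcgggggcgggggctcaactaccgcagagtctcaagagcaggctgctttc
Bnip3: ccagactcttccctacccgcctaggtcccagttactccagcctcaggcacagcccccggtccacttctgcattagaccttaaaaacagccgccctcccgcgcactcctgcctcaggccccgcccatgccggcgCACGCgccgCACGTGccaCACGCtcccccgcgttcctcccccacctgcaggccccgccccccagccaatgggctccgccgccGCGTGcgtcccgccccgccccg
Whole windows of 250 bases before to 50 bases after a start were searched for these motifs and for TGATGNAA, the core of the composite site of CHOP and ATF factors. The 10 genes had 14 windows among 32851 mouse windows. ACGTG was found in 1 of the 14, that of Bnip3, against 19.6% of all windows, and the E-box in the same 1, against 7.15%. GTAAACA was found in 1 of the 14, that of Bcl2l11, against 3.65% of all windows. GCGTG was found in 6 of the 14, against 32.4%, and TGATGNAA in 0, against 3.97%. None of these letters occurred in the Bcl2l2 window. A match describes the sequence and is not a measured site of binding.

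The ratio of pro-survival to pro-death transcripts among these genes within a library does not depend on how libraries are scaled. The log2 ratio of the summed FPKM of the 4 pro-survival genes to that of the 5 BH3-only and pore-forming genes was -1.99, -1.96, -1.93 and -1.94 in knockdown libraries, against -1.99, -1.93, -2.04 and -1.96 in control libraries. Pro-death transcripts, led by Bak1 and Bad, were the larger sum in every library, and the groups overlapped. Bax and other family genes outside the 10 are not in these sums, so the ratio is not that of the whole family. Bax alone was at 129.6 ± 4.92 FPKM in the knockdown and 129.7 ± 3.45 FPKM in the control (SD, n = 4 each). Whether the pro-death sum alone separated the groups differed between units. It lay between 158 and 164 FPKM in the knockdown and between 166 and 171 FPKM in the control, without overlap, but between 289 and 297 CPM in the knockdown and between 295 and 299 CPM in the control with trimmed-mean scaling, with overlap. On the log2 scale the sum differed by -0.07 on FPKM, where the median of all tested genes was -0.05. With trimmed-mean scaling it differed by -0.02, where that median was -0.003. The mean ratio was -1.96 ± 0.02 in the knockdown and -1.98 ± 0.05 in the control (SD, n = 4 each), a difference of 0.03.

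Some ratios of FPKM between single genes separated the groups. Bcl2l2 over Bcl2l11 was 1.08, 1.00, 1.19 and 1.42 on the log2 scale in knockdown libraries, against 0.91, 0.62, 0.78 and 0.69 in control libraries, a difference of means of 0.42. Every knockdown library was above every control library. Mcl1 over Bcl2l11 was 2.55 ± 0.13 in the knockdown and 2.38 ± 0.06 in the control (SD, n = 4 each), a difference of 0.16, with the nearest libraries at 2.44 in the knockdown and 2.43 in the control, and on counts its groups overlapped. Bcl2l2 over Bak1 was -2.72 ± 0.07 in the knockdown and -2.91 ± 0.07 in the control (SD, n = 4 each), a difference of 0.19, without overlap, whereas Mcl1 over Bak1 overlapped. Bcl2l2 over Mcl1, both pro-survival genes, also separated the groups, at -1.37 ± 0.10 in the knockdown and -1.63 ± 0.09 in the control (SD, n = 4 each), a difference of 0.26. Separation was thus not limited to pairs of a pro-survival and a pro-death gene. These pairs were chosen after the values had been seen and are a description without a test.

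**Figure D4:**
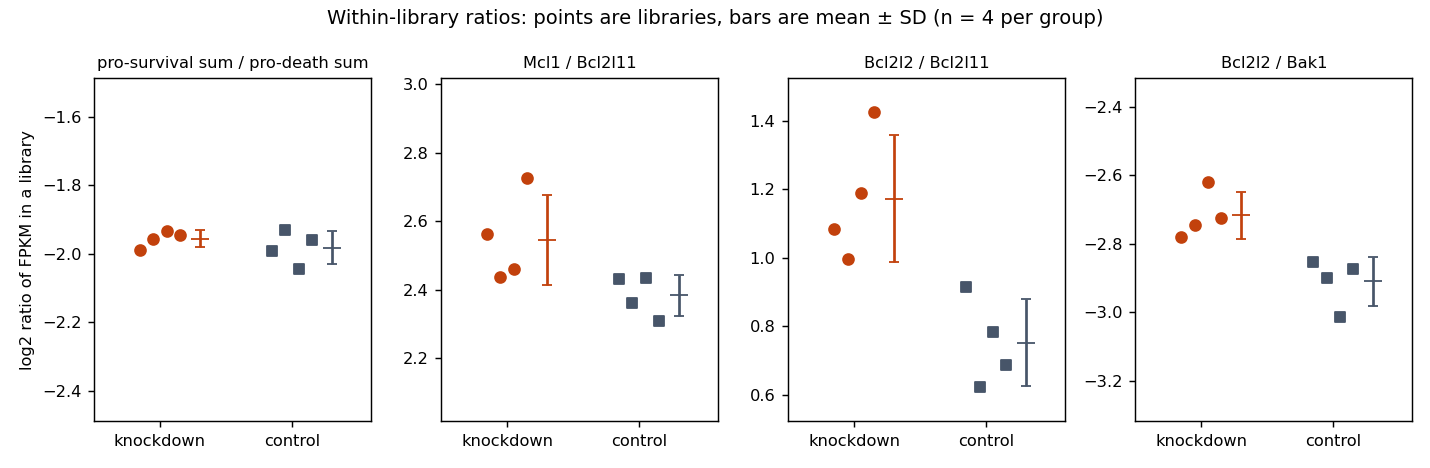
Log2 ratios of FPKM within each library for the summed pro-survival over summed pro-death genes and for 3 pairs of genes, with knockdown left of control; points are libraries, bars are the mean ± SD (n = 4 each), and each panel spans the same height. The summed ratio overlaps between groups, and the 3 pairs, which involve Bcl2l2 or Bcl2l11, do not overlap on FPKM, narrowly for Mcl1 over Bcl2l11.

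Several of the 10 genes make proteins of different action from alternative transcripts, such as the long and short forms of BCL-X and the forms of BIM, which counts per gene do not separate. The authors' count and FPKM of a gene together imply the mean transcript length behind them, which moves with the estimated mix of transcripts. It was 2002 bases for Bak1 and 1559 bases for Bok in all 8 libraries. For Bcl2l1 it lay between 3181 and 4022 bases in the knockdown and between 3149 and 3571 bases in the control. For Bcl2l11 it lay between 4468 and 4757 bases in the knockdown and between 4441 and 4612 bases in the control, and for Bcl2, on few reads, between 2334 and 3026 bases in the knockdown and between 2478 and 3113 bases in the control. Mcl1 was at 3371, 3415, 3407 and 3319 bases in knockdown libraries, against 3406, 3427, 3427 and 3426 bases in control libraries. The groups overlapped for each of these genes, and no test was made of this quantity.

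Other genes of the family were mostly too low to test or were not called. Of 17, 8 were tested, and 2 fell and none rose, with a median of -0.23. Among all tested genes, 11.1% rose and 9.15% fell. Pmaip1, the gene of the BH3-only protein NOXA, which neutralises MCL-1, was at 12.2 ± 1.34 CPM in the knockdown and 14.8 ± 0.958 CPM in the control (SD, n = 4 each; change -0.29, SE 0.10; edgeR adjusted p = 0.0339). Bcl2l13, which encodes a mitophagy receptor, was at 30.2 ± 2.55 CPM in the knockdown and 34.5 ± 1.39 CPM in the control (SD, n = 4 each, -0.19, SE 0.07, edgeR adjusted p = 0.0393). The groups overlapped for both genes, Bcl2l13 lost its call on FPKM, DESeq2 called 0 of the list, and leaving out single libraries gave 0 calls without knockdown replicate 1 or control replicate 2 and 1 call in each other case. Bcl2l12, at 5.31 ± 0.608 CPM in the knockdown and 6.81 ± 0.175 CPM in the control (SD, n = 4 each), was not called though its groups did not overlap (-0.36, SE 0.14, edgeR adjusted p = 0.0606), and was called lower by library total, on FPKM and with a filter of mean CPM of at least 5. The effector Bax, the highest of the list, was at 116 ± 4.54 CPM in the knockdown and 112 ± 3.21 CPM in the control (SD, n = 4 each) and was not called (0.05, SE 0.04, edgeR adjusted p = 0.432).

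Of 15 genes that act at the mitochondrial membrane or downstream of it, 4 rose and none fell, with a median of 0.00. The shares over all tested genes were 11.1% for rises and 9.15% for falls. Mtch2, the gene of the outer-membrane receptor of truncated BID, had 167, 174, 157 and 166 CPM in knockdown libraries, against 146, 148, 155 and 149 CPM in control libraries. All knockdown libraries lay above all control libraries (0.15, SE 0.04, edgeR adjusted p = 0.00256). The channel genes Vdac1 (0.11, SE 0.03) and Vdac3 (0.15, SE 0.03) rose, as did Cycs, the gene of cytochrome c (0.08, SE 0.03), whose groups overlapped. The edgeR adjusted p of these 4 lay between 0.00122 for Vdac3 and 0.0351 for Cycs. Under scaling by library total 1 rose (Vdac3) and 2 fell (Casp8 and Opa1), and on FPKM 0 rose and the same 2 genes fell. Without control replicate 3 or control replicate 4, 2 rose (Vdac3 and Mtch2), and Cycs also lost its call without knockdown replicate 1, knockdown replicate 4 or control replicate 2. Casp8 was called lower without knockdown replicate 2 or control replicate 3.

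Of 23 tested regulators and binding partners of the family, 6 rose and 4 fell, with a median of -0.01. Over all tested genes the shares were 11.1% and 9.15% in the same order. Fbxw7, the substrate receptor of a ubiquitin ligase that can target MCL-1, had 17.3, 20.3, 19.7 and 16.3 CPM in knockdown libraries, against 26.03, 30.3, 27.3 and 25.2 CPM in control libraries. All knockdown libraries lay below all control libraries (-0.57, SE 0.08, edgeR adjusted p = 1.51e-06). Huwe1, the gene of the MULE ubiquitin ligase, which also acts on MCL-1, had 257, 257, 253 and 281 CPM in knockdown libraries, against 231, 207, 234 and 229 CPM in control libraries. All knockdown libraries lay above all control libraries (0.22, SE 0.04, edgeR adjusted p = 2.89e-05). Pim3 (0.23, SE 0.03) and Akt1 (0.15, SE 0.03), genes of kinases that can phosphorylate BAD, rose as well. So did Ywhaq (0.15, SE 0.03), a gene of the 14-3-3 family that binds phosphorylated BAD. The related kinase genes Pim1 (-0.09) and Pim2 (-0.11) were not called. Nor were the other 14-3-3 genes, with Ywhae above 0 (0.06) and Ywhab, Ywhag, Ywhah, Ywhaz and Sfn below 0. Ywhah (-0.07, SE 0.03, edgeR adjusted p = 0.0677) had groups without overlap and was called lower by DESeq2, by library total and on FPKM. The co-chaperone genes Bag3 (-0.16, SE 0.04) and Bag4 (-0.31, SE 0.08) fell, whereas the related and more abundant Bag1 rose (0.10, SE 0.03, edgeR adjusted p = 0.00709). Bag1 lost its call under scaling by library total and on FPKM. Foxo3 (-0.41, SE 0.14), which encodes a transcription factor known to drive Bcl2l11, also fell. Foxo3 was at 5.76 ± 0.660 CPM in the knockdown and 7.65 ± 0.950 CPM in the control (SD, n = 4 each, edgeR adjusted p = 0.0284) and lost its call with DESeq2, on FPKM and without knockdown replicate 1, knockdown replicate 2, control replicate 2 or control replicate 4. On FPKM 3 of the list rose (Ywhaq, Akt1 and Pim3) and 4 fell.

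Of 27 mitophagy receptors and hypoxia-induced genes, chosen for the roles of Bnip3, 3 rose and 1 fell, with a median of 0.06. Rises made up 11.1% and falls 9.15% of all tested genes. Ero1l, the gene of an oxidase of the endoplasmic reticulum that hypoxia induces, rose (0.22, SE 0.03, edgeR adjusted p = 1.77e-07). The autophagy adaptor gene Sqstm1 (0.10, SE 0.03) and the mitophagy receptor gene Fkbp8 (0.10, SE 0.04) rose too, and both lost the call under scaling by library total and on FPKM, where the list's median was 0.00. Fkbp8 also lost it without knockdown replicate 4, control replicate 1, control replicate 2 or control replicate 4. Egln3, the gene of a prolyl hydroxylase of the hypoxia pathway, was at 12.7 ± 1.42 CPM in the knockdown and 15.99 ± 1.80 CPM in the control (SD, n = 4 each), and fell (-0.33, SE 0.10, edgeR adjusted p = 0.0165). The fall was not called without knockdown replicate 4 or without control replicate 1. Bnip3l, the closest relative of Bnip3, was at 73.9 ± 2.89 CPM in the knockdown and 72.6 ± 2.63 CPM in the control (SD, n = 4 each) and was not called (0.03, SE 0.05, edgeR adjusted p = 0.732).

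**Figure D5:**
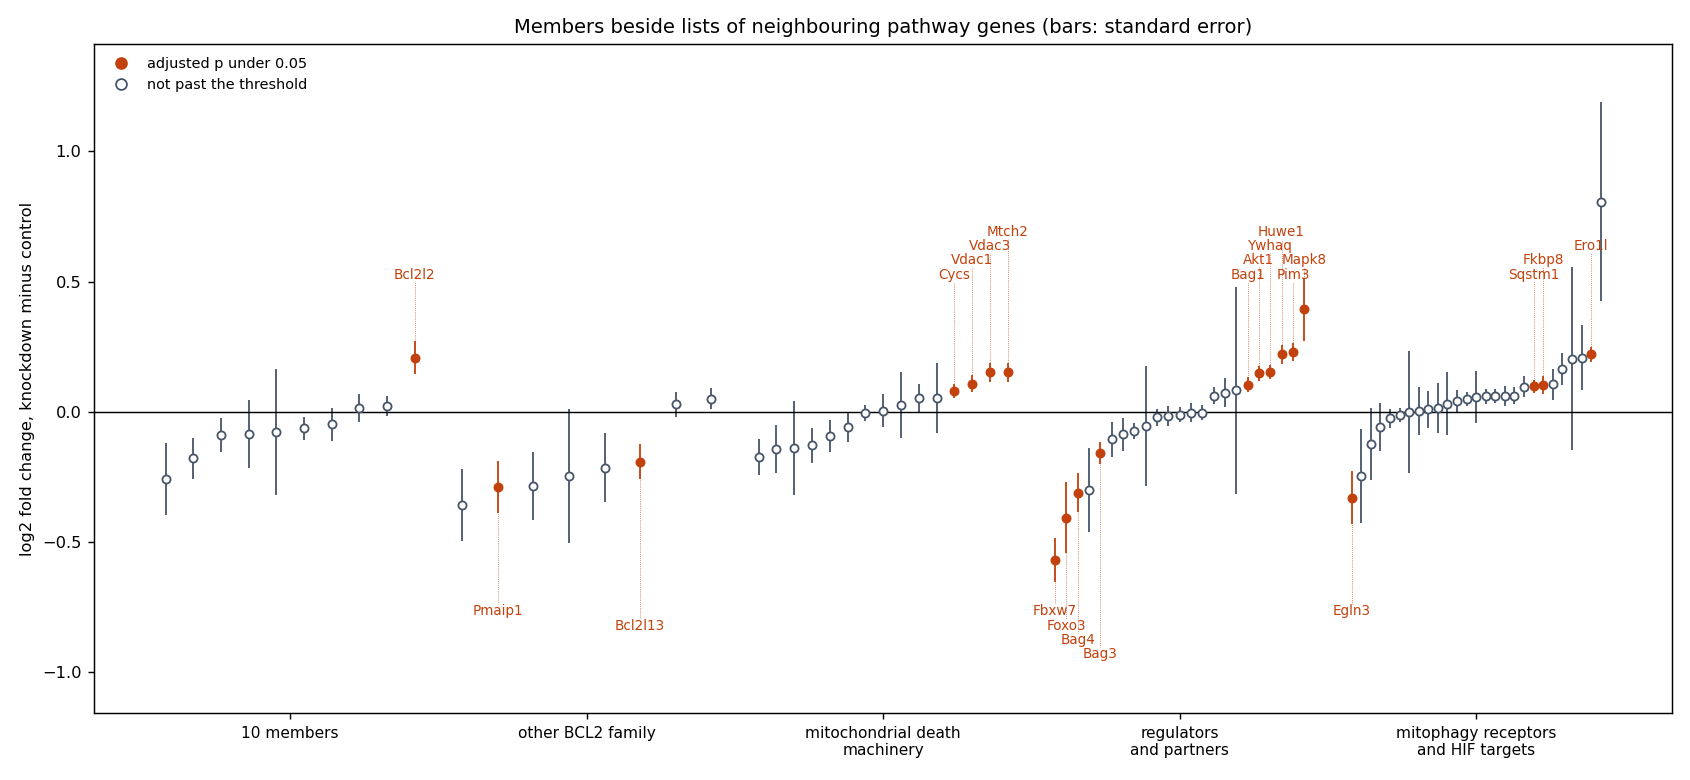
Log2 fold changes, knockdown minus control, of the 10 genes and of the tested genes in 4 lists, sorted by value within each, with bars for the standard error; filled and named points had an edgeR adjusted p under 0.05. Bcl2l2 is the 1 named point among the 10 genes, and Fbxw7, at -0.57, is the lowest named point.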

How the data were processed

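RNA of 8 libraries was enriched with oligo(dT), per the labels' protocols. Per gene, the deposited values are expected counts, 6.52% of them not whole (tolerance 1e-09), and the authors' FPKM, per the file headers. The submitters' processing notes name RSEM, edgeR, DESeq2, StringTie 1.3.1, HISAT2 2.4, Bowtie2 2.2.8 and fastp 0.18.0 without their roles, and build GRCm38.p6. No source used here gives the annotation release or whether counting used strand, so reads of overlapping genes cannot be told apart.

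Rounded expected counts entered edgeR 4.0.16, run in R 4.3.3 (TMM scaling, edgeR's default expression filter, robust quasi-likelihood F-test, two-sided, no covariate, all 8 libraries). A floor of 3 counts equals 0.214 to 0.240 CPM in the knockdown and 0.181 to 0.257 CPM in the control, and covers counting error only. Replicates of a group differed by more than sampling noise (chi-square per degree of freedom 1.94 to 3.94). Alternatives were other scalings and filters, DESeq2 1.42.0, limma 3.58.1 (voom, and log2(FPKM + 0.5)), omission of each library, a replicate block and a 0.01 threshold. The labels give no batch. RefSeq GRCm38.p6 matched 21728 of the genes.

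The members, lists and tests were chosen with earlier results of these data known. In each list, called genes were named where a direction held 5 or fewer, and otherwise the 4 with the smallest adjusted p. Bnip3l, Bcl2l12, Pabpn1, Gpr137, Acoxl, genes called only under other settings and single markers were named after their values were seen. A planned comparison of protein sequences was not made, and 2 genes first planned for the mitochondrial list, beyond the 15 counted, are not reported here.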

Additional observations from a re-analysis of the deposited data

How the results depend on the processing

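The median of all tested genes was 0.00 with TMM, -0.06 with library totals and -0.05 on FPKM. By library total, 0 of the 10 genes rose and 1 fell, 1 mitochondrial gene rose and 2 fell, 1 mitophagy or hypoxia gene rose, and 766 of all genes rose and 1951 fell. With RLE and upper-quartile factors, 1261 and 1243 of all genes rose, and Bcl2l2 kept its call. On FPKM, which changed the measure and the test as well, 0 of the 10 rose, 0 mitochondrial genes rose and 2 fell, 3 regulators rose, 1 mitophagy or hypoxia gene rose and 2 fell, and 592 of all genes rose. Bad was -0.0421 by library total and -0.0435 on FPKM, and Bak1 -0.0339 and -0.0332 in the same order, against estimates above 0 with TMM. DESeq2 called 0 of the other family genes lower. At a threshold of 0.01, 0 of the 10 rose, 0 other family genes fell, 2 mitochondrial genes rose, 0 mitophagy or hypoxia genes fell, and 825 of all genes rose and 580 fell. The TMM factors were 0.974 to 0.987 in the knockdown and 1.012 to 1.033 in the control. TMM therefore places knockdown values higher relative to control values than library totals do. What lies behind that difference in factors, and the cause of the other shifts, was not tested.

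Leaving out each library gave 0 to 1 rises and 0 falls among the 10, 0 to 1 falls of other family genes, 2 to 4 rises and 0 to 1 falls of mitochondrial genes, 5 to 6 rises and 3 to 4 falls of regulators, 2 to 4 rises and 0 to 1 falls of mitophagy or hypoxia genes, and 1033 to 1227 rises and 802 to 997 falls of all genes. The log2 fold change of Bcl2l2 was 0.18 to 0.25, of Bcl2l11 -0.23 to -0.13, of Bnip3 -0.31 to -0.18, of Bcl2 -0.2202 to 0.0642 (above 0 without knockdown replicate 1) and of Bad -0.0126 to 0.0449. Bad was -0.0019, -0.005 and -0.0126 without knockdown replicate 1, knockdown replicate 2 and control replicate 3. The difference of the pro-survival to pro-death ratio was 0.00 to 0.04.

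Replicate numbers did not pair the libraries (correlations of same-numbered deviations -0.04 to 0.08). With the replicate number as a block, Bcl2l2 was 0.21, edgeR adjusted p = 0.0114, 1 mitochondrial gene fell, and 1425 of all genes rose and 1235 fell. Bcl2 rested on few counts. Chosen after the data were seen, counts in place of FPKM gave 0.12 for Mcl1 over Bcl2l11, with overlap, and 0.39 and 0.19 for Bcl2l2 over Bcl2l11 and over Bak1, without overlap.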
